A study of Drosophila melanogaster with 4 samples.

Results

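The Jonah and trypsin families are secreted serine proteases of the fly, and 31 genes were taken by symbol: 16 Jonah genes, 11 trypsins, and the related genes Ser6, Ser8, Ser12 and yip7. A gene counted as measured if an array probe set matched it and no other gene, and 27 of the 31 did, of 10844 named genes on the array. Of these 27, 14 were Jonah genes, 9 trypsins and 4 Ser genes or yip7, each with 1 probe set. Jon99Cii and Jon99Ciii shared 3 probe sets with each other and are described apart. The trypsins deltaTry and gammaTry were not measured here.

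The samples were whole adult Drosophila melanogaster, 4 in all and 1 per array, which form a single baseline group (n = 4). Per the labels, all of the flies had been fed normally as young larvae, went onto yeast-free food early in the third larval instar, and were kept on it until 4 days after eclosion. They were killed at the onset of a feeding experiment, before any fly got yeast again. No genotype, strain or sex is given in the sources used here, nor whether the samples came from separate cultures. Any p-value below therefore measures only the spread between these samples, which may be technical. The labels order the samples as hours -4, -3, -2 and -1, and these are called libraries 1, 2, 3 and 4.

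In the fly midgut, enterocytes secrete serine proteases into the lumen, where these enzymes cut dietary protein into peptides. Trypsins cut after the basic residues lysine and arginine, while Jonah proteins resemble chymotrypsins by sequence. All are made as inactive precursors and activated by cleavage. Some family members have lost a residue of the catalytic triad and are called serine protease homologs. RefSeq lists a synonym of that homolog series for Jon99Fi, kappaTry, gammaTry and yip7. Yeast is the main source of protein in standard fly food, so these genes were measured here in flies without that source. Gut and other tissues were not separated, and in whole-fly RNA fewer cells of a type and less RNA per cell cannot be told apart.

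The deposited values are normalized intensities on a linear scale, with a median over all probe sets of 112 in libraries 1, 2 and 4 and 113 in library 3. The highest of 23 negative controls, which target sequences that flies do not have, gave 119 to 133. Library 3 carried more male transcripts: all 15 measured genes of a male accessory gland and ejaculatory duct list were highest there, with a summed intensity of 2703 in library 3 against 653 to 727 in the others. Of 14 measured testis genes, 12 were highest there, with a sum of 4406 against 2636 to 2681. Added hybridisation controls were brighter than in library 1 by 1.59-fold in library 3 and 1.29-fold in library 4, and stood at 0.927 of it in library 2. The 3' ends of control transcripts exceeded their 5' ends by a mean log2 ratio of 1.44 (library 3) and 1.40 (library 4), where library 1 had 1.14 and library 2 had 1.05. What part these library differences have in the results below was not tested.

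Of the 27 measured genes, 17 had values above the highest negative control in every library, 2 in some libraries, and 8 in none. A filter on dim probe sets left 23 of the 27 for testing, 12 Jonah genes, 9 trypsins, Ser8 and yip7. All 23 also passed that filter when any 1 library was left out, so none entered through a single library. Probe sets differ in how strongly they bind, so intensities of different genes are not ranked as abundances here.

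Among the Jonah genes, 3 genes had signals above 2000, with ranges of 1.15-fold to 1.23-fold between libraries. Jon99Fii had intensities of 5005, 5154, 5343 and 4562 in libraries 1 to 4. Its probe set carries the Affymetrix mark for sequences shared within a gene family, so related transcripts may add to it. Jon65Aiv had 3355, 3565, 2911 and 3568, and Jon65Aiii 2550, 2556, 2288 and 2625. For both of these neighbouring genes library 3 was the lowest, while the other 3 libraries lay close together.

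Jon99Fi and Jon25Biii had wider spreads. Jon99Fi, the Jonah gene with a homolog synonym, had 1048, 730, 938 and 716, so libraries 1 and 3 were high and libraries 2 and 4 low. Jon25Biii had 785, 926, 687 and 534, with its highest value 1.73 times its lowest. Its adjacent gene Jon25Bii gave 178, 190, 198 and 187, a 1.11-fold range, and the next gene of that cluster, Jon25Bi, lay far below the negative controls at 9.61 to 14.9.

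The other Jonah genes had moderate or low signals. Jon44E had 356, 384, 438 and 411, Jon65Aii 388, 459, 406 and 397, and Jon65Ai 248, 250, 264 and 251. Jon74E stood at 134, 137, 250 and 153, which set library 3 apart from the other 3. Jon99Ci, at 124, 122, 114 and 103, and Jon66Ci, at 96.5, 99.3, 114 and 109, did not clear the highest negative control in every library. Jon66Cii, at 23.1 to 27.7, lay far below that level and did not pass the filter.

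**Figure D1:**
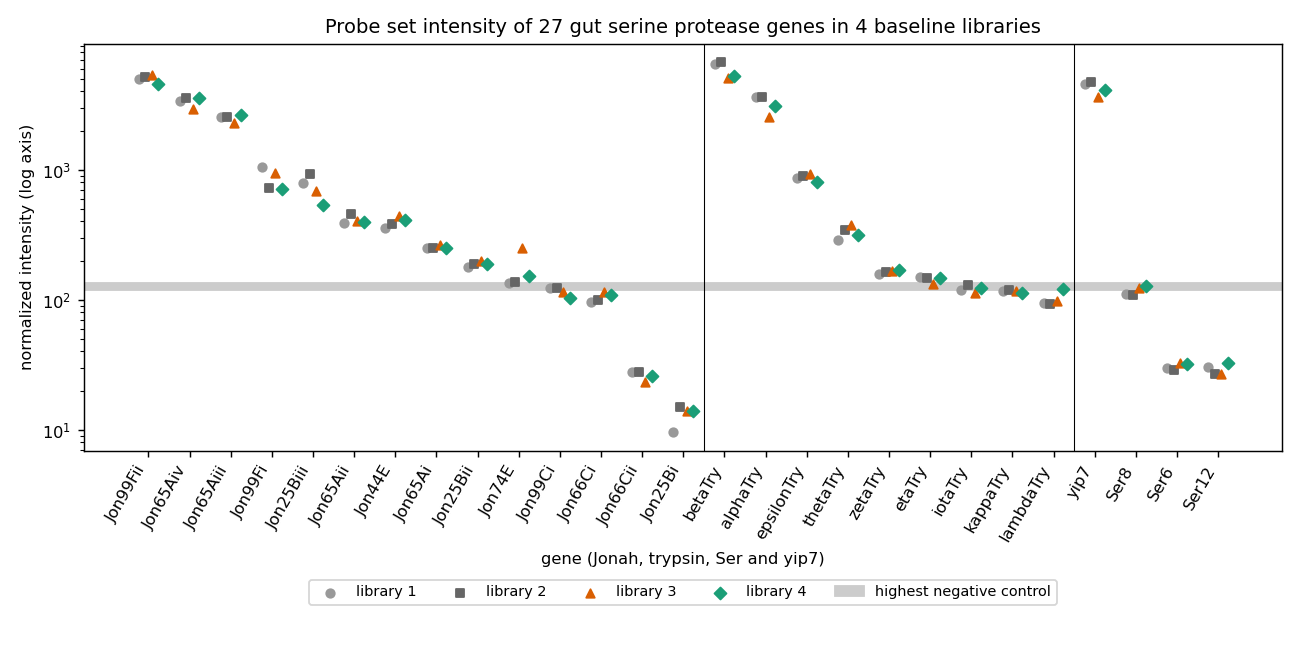
Normalized intensity (log axis) of the 27 measured genes by family, with 1 point per library and the grey band at the range of the highest negative control (119 to 133). Jon74E stands out in library 3, and 10 genes lie in or below the band in all libraries, 8 of them under the highest control of each library; heights of different genes are not comparable as abundances.

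The trypsins divided into a few genes with strong signals and several near the negative controls. The alphaTry probe set gave 3625, 3612, 2541 and 3071. The betaTry probe set gave 6521, 6686, 5079 and 5283. Both genes were high in libraries 1 and 2 and low in library 3, and for betaTry library 4 was nearly as low as library 3.

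The gene between them, epsilonTry, did not share that order. Its intensities were 868, 897, 925 and 800, so library 3 was its highest. Library 3 was also the highest for thetaTry, with 289, 344, 378 and 312. The trypsin genes etaTry (149, 146, 133 and 147) and zetaTry (158, 162, 167 and 168) varied by 1.12-fold and 1.06-fold over the libraries. In kappaTry, a gene with a homolog synonym, the values were 117, 119, 116 and 112, a 1.06-fold range and the lowest SD of log2 intensity among the 23 tested genes (0.03). The remaining trypsins were iotaTry, with 119, 130, 112 and 123, and lambdaTry, with 95.1, 92.7, 97.8 and 121. For lambdaTry library 4 was the high one, at a level still below the highest negative control of that library.

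Of the remaining genes, yip7 gave 4593, 4706, 3600 and 4125, the same order of libraries as betaTry. Ser8 had 110, 110, 124 and 128 and did not exceed the highest negative control in any library. Ser6 (28.9 to 32.4) and Ser12 (26.8 to 32.9) were below the filter in every library.

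The probe sets that match both Jon99Cii and Jon99Ciii, which lie next to each other and next to Jon99Ci, had strong signals. These 3 gave 6217, 6780, 6836 and 6479, then 3923, 4028, 4628 and 4119, then 6307, 6687, 6990 and 6097. All 3 were highest in library 3, by log2 differences of 0.08, 0.20 and 0.14 from the mean of the other libraries, none of which passed in limma (adjusted p 0.933, 0.639 and 0.853). Their signal cannot be divided between the pair of genes.

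The median spread of the protease genes between baseline libraries was above that of all tested probe sets, although none of them passed the test for excess variability. Their median coefficient of variation was 7.90%, against 5.38% for 104 other tested genes with a serine protease or homolog synonym in RefSeq and 5.24% for all 8379 tested probe sets. The SD of log2 intensity exceeded the SD that limma expected from probe sets of like intensity in 17 of the 23 genes (73.9%), against 50 of 104 other serine protease genes (48.1%) and 43.9% of all tested probe sets. It was more than 2 times the expected SD in 7 of 23 (30.4%), against 6.73% of the other serine protease genes and 6.31% of all. These shares are descriptions, since genes are not replicates and the list was chosen with earlier results known. Of the Jonah genes 6 of 12 were highest in library 3 and 6 lowest in library 1, against 23.0% and 18.1% of all tested probe sets. Of the 9 trypsins 2 were highest and 4 lowest in library 3. Over all 23 genes 8 were highest and 7 lowest in library 3 (34.8% and 30.4%), against 23.0% and 28.6% of all. By family, 10 of 12 Jonah genes, 5 of 9 trypsins and both of Ser8 and yip7 lay above the expected SD.

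The 7 genes were Jon74E (5.45 times the expected SD), alphaTry (3.46), betaTry (3.38), Jon25Biii (3.32), yip7 (2.69), Jon99Fi (2.69) and lambdaTry (2.18). In the limma-based variance test 0 of the 23 passed at an adjusted p under 0.05, while 0.274% of all tested probe sets did. The same 7 had an unadjusted p under 0.05 in that test, against 5.53% of all probe sets. That p follows from the ratio to the expected SD, so it adds no separate evidence. Of the 23, Jon74E came nearest, with an adjusted p of 0.0547. CG14642, of the 104 other serine protease genes, did pass this variance test (adjusted p 0.0144), at 7.27 times the expected SD. At the other end, kappaTry, Jon65Ai and zetaTry had 0.405, 0.477 and 0.523 times the expected SD.

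**Figure D2:**
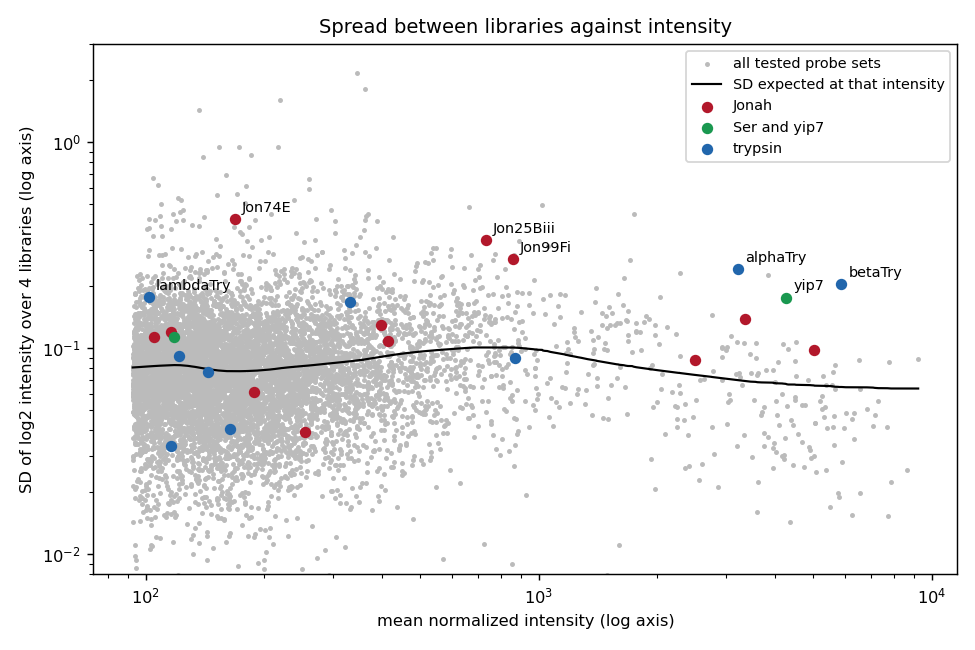
SD of log2 intensity over the 4 libraries against mean normalized intensity, both on log axes, for all 8379 tested probe sets (grey; 13 lie below the axis), with the expected SD as a line and the 23 tested protease genes by family. The 7 labelled genes have an SD more than 2 times that expected, and above an intensity of 2000 alphaTry, betaTry and yip7 lie above nearly all grey points.

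The excess was not confined to weak signals. Tested genes were sorted by mean intensity, with limits set after the data were seen. Between 92.5 and 200 the median SD of log2 intensity was 0.10 for 10 protease genes and 0.07 for 5291 other probe sets. From 200 to 500 it was 0.12 for 4 protease genes and 0.08 for 2436 others, and from 500 to 1000 it was 0.27 for 3 and 0.10 for 381. Above 2000 it was 0.16 for 6 protease genes and 0.05 for 147 probe sets outside the families. With the 3 shared probe sets of Jon99Cii and Jon99Ciii added to the 6, it was 0.11. Of the 147, 3 had a larger SD than yip7 and none a larger one than alphaTry.

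Each library was next compared with the mean of the other 3, to see which sample stood apart. Jon74E, a Jonah gene with no other listed gene beside it in the RefSeq order, was higher in library 3, at 250 against 134, 137 and 153 in libraries 1, 2 and 4. The log2 change was 0.83 ± 0.09 (SE, 1 library against 3), with a limma adjusted p of 0.00229. It was the 1 gene called of the 23, while 0.704% of all tested probe sets were called in this comparison, 0.561% as higher. At an unadjusted p under 0.05 there were 5 of 23 genes (21.7%), Jon74E, alphaTry, yip7, Jon65Aiv and thetaTry, against 6.46% of all probe sets. The test assumes that a lone library varies like the others, so it rests on no replicated difference. Without a filter on dim probe sets the size stayed at 0.83 but the limma adjusted p was 0.427. Jon74E and the male transcripts were high in the same library, and their relation was not tested.

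Above an intensity of 2000, 5 of 6 protease genes had lower values in library 3, with a median log2 change of -0.27 over the 6, and none of them passed the test. The 3 shared probe sets of Jon99Cii and Jon99Ciii are also above 2000 and were all higher there, so that 5 of 9 probe sets were lower, with a median of -0.17. The changes were -0.43 ± 0.11 for alphaTry, -0.31 ± 0.09 for yip7, -0.27 ± 0.12 for betaTry, -0.26 ± 0.08 for Jon65Aiv and -0.17 ± 0.08 for Jon65Aiii (SE), with limma adjusted p from 0.216 to 0.776. Jon99Fii differed in direction at 0.12. The 147 probe sets of that intensity outside the families had a median log2 change of 0.01, with 44.2% of them lower and with -0.10 and 0.10 as the 5th and 95th percentiles. Only 1 of these 147, for the neuropeptide-like precursor gene Nplp2, was lower than Jon65Aiv, and none was lower than alphaTry. In the fat body list, the yolk protein genes Yp1 and Yp3 had the same order of libraries as betaTry and yip7. The orders of alphaTry, Jon65Aiv and Jon65Aiii differed from it, apart from library 3 being lowest. Yp1 had 185 in library 3 against 249, 258 and 206 in libraries 1, 2 and 4, and Yp3 had 298 against 369, 370 and 301. The yolk protein gene Yp2 did not share it, with 222, 268, 217 and 200 in libraries 1 to 4. Lsp2 of the same list was lowest in library 1, at 198. Over the list's 6 measured genes the summed intensity was 1203 in library 3 against 1249 to 1422 in the others, and all 5 tested genes were lower there, none called. This direction was not particular to the fat body list. Also lower in library 3 were 6 of 6 tested midgut regulators, 2 of 2 Malpighian tubule genes and 10 of 13 serpins. Of tested gut hydrolase genes 6 of 9 were lower, of lipid digestion 2 of 3, carbohydrate digestion 5 of 9 and salivary gland 1 of 2. Fewer were lower among body pattern and immunity proteases (4 of 10), egg shell (2 of 7), testis (1 of 10) and male gland or duct genes (0 of 4). Of probe sets outside the 23 genes, 53.0% were lower at intensities of 92.5 to 200 and 56.7% at 200 to 500. The part of fat body transcripts in the protease values was not tested, nor the relation of the Yp values to the higher male transcripts in library 3.

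**Figure D3:**
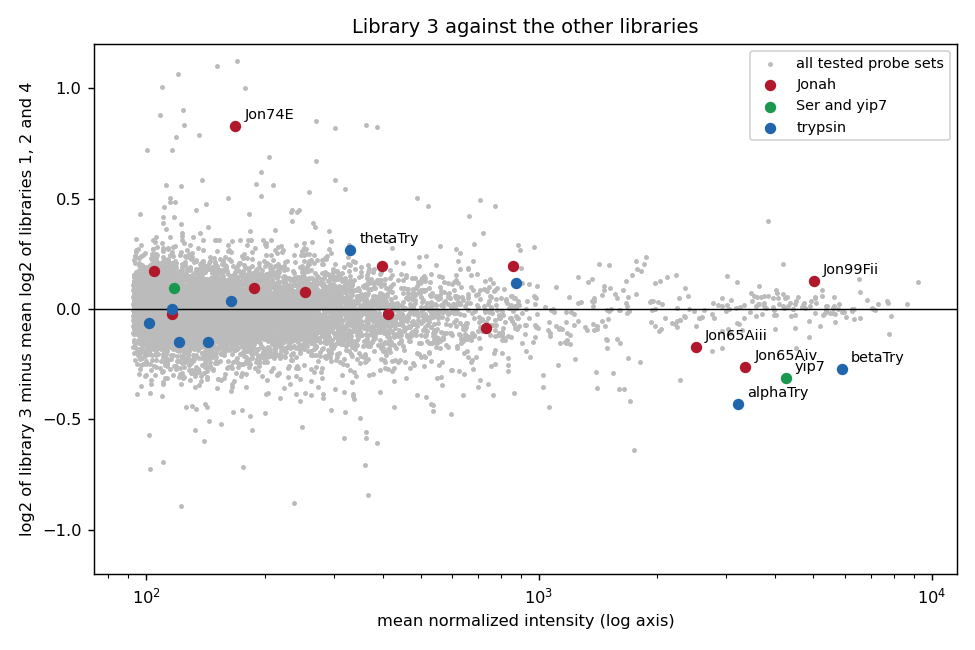
Log2 intensity in library 3 minus the mean of libraries 1, 2 and 4, against mean normalized intensity (log axis), for all tested probe sets (grey; 14 lie outside the axis) and the 23 tested protease genes by family. Jon74E is at 0.83, and above an intensity of 2000, alphaTry, yip7, betaTry, Jon65Aiv and Jon65Aiii lie below a narrow grey band while Jon99Fii lies at 0.12.

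At lower signals the genes showed no common direction in library 3. Of 3 genes between 500 and 1000, Jon25Biii was lower, with a log2 difference of -0.09, and of 4 genes between 200 and 500, Jon65Aii was lower, with -0.02. Of 10 genes below 200, 5 were lower. The largest positive differences after Jon74E were 0.27 in thetaTry and 0.20 in Jon99Fi, both without a call in limma (adjusted p 0.722 and 0.935). Over all 23 genes the median difference was close to 0, at -0.002, and over all probe sets it was -0.01.

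Setting library 3 or library 4 against libraries 1 and 2 alone gave more calls. With library 4 left out, 6 of 23 genes were called in library 3, while 6.02% of all probe sets were called (504 of 8379). Jon74E was higher, by 0.89 ± 0.08 (SE; 2.01% of all probe sets were called higher). Lower were alphaTry, with a log2 change of -0.51 ± 0.07, betaTry with -0.38 ± 0.06, yip7 with -0.37 ± 0.06, Jon25Biii with -0.31 ± 0.09 and Jon65Aiv with -0.25 ± 0.07 (SE; 4.01% of all were called lower). The limma adjusted p ran from 1.70e-12 for Jon74E to 0.0472 for Jon25Biii. The spread in this test comes only from libraries 1 and 2, which can make it too small.

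With library 3 left out instead, library 4 differed from libraries 1 and 2 at 4 of the 23 genes, against 6% of all probe sets. Jon25Biii was lower, with a log2 change of -0.68 ± 0.10, as were betaTry with -0.32 ± 0.06 and alphaTry with -0.24 ± 0.07 (SE), while 4.71% of all probe sets were called lower. Higher was lambdaTry, by 0.37 ± 0.08 (1.29% of all were called higher). The limma adjusted p ran from 0.000495 to 0.0283. Both comparisons share libraries 1 and 2. In the side-by-side values, yip7 was at -0.17 and Jon65Aiv at 0.04 in library 4, against -0.37 and -0.25 in library 3.

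**Figure D4:**
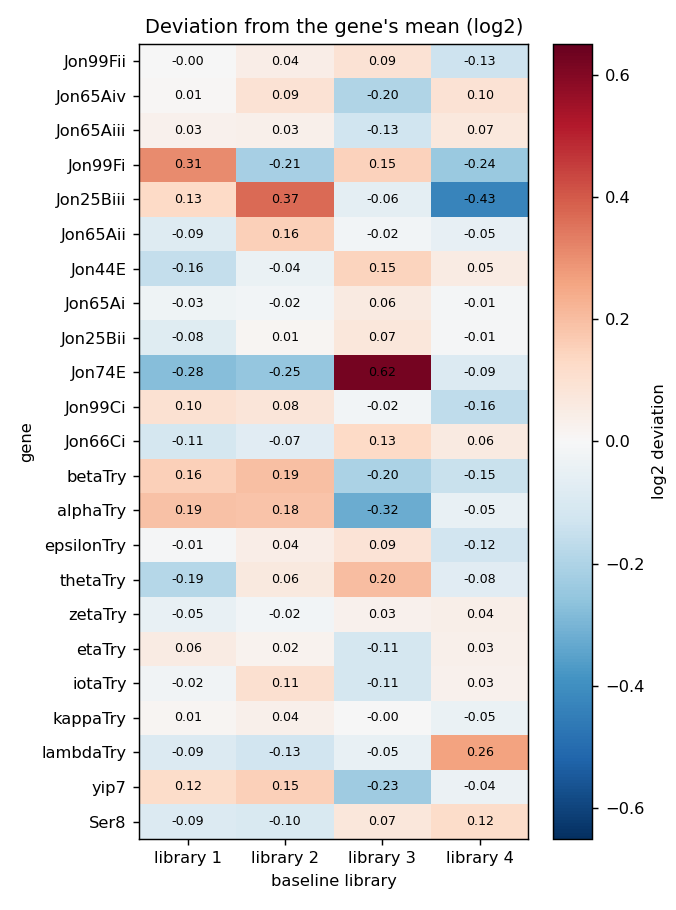
Log2 deviation of each library from the gene's own mean, for the 23 tested genes by family, in red above and in blue below the mean. Library 3 is at 0.62 for Jon74E, and alphaTry, betaTry and yip7 are above their means in libraries 1 and 2 and below them in libraries 3 and 4.

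None of the 23 genes was called when libraries 1, 2 or 4 were set against the mean of the other 3. In library 1 none of all probe sets was called either (0%; limma), and 1 of the 23 genes had an unadjusted p under 0.05, against 2.05% of all probe sets. That gene was Jon99Fi, with a log2 difference of 0.41. Next in size were alphaTry at 0.25 and betaTry at 0.21, while Jon74E (-0.37), thetaTry (-0.25) and Jon44E (-0.21) were the lowest. In library 2, 0.107% of all probe sets were called and 1 of the 23 genes had an unadjusted p under 0.05 (2.83% of all did), Jon25Biii at 0.49. It was followed by betaTry at 0.26 and alphaTry at 0.25, and the lowest were Jon74E (-0.34), Jon99Fi (-0.29) and lambdaTry (-0.17).

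In library 4, 0.0119% of all probe sets were called in limma. Of the 23 genes, 4 had an unadjusted p under 0.05, against 8.63% of all probe sets. These were lambdaTry at 0.35, Jon25Biii at -0.57, Jon99Ci at -0.22 and Jon99Fii at -0.18. Ser8 at 0.16 and Jon65Aiv at 0.13 were the next highest, and Jon99Fi, at -0.32, was between Jon25Biii and Jon99Ci.

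A slope over the labelled hour was fitted because the labels order the samples in time. None of the 23 genes passed in limma, and neither did any probe set (0%). At an unadjusted p under 0.05 there were 5 of 23 genes (21.7%), against 11.6% of all probe sets. The lowest adjusted p among the 23 was 0.373, for betaTry, with a slope of -0.13 per hour on the log2 scale. Without library 3, 3 of the 23 were called, alphaTry and betaTry as lower and lambdaTry as higher with the hour, against 3.83% of all probe sets.

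Most of the genes lie in clusters, and neighbours did not always rank the libraries alike. Only pairs already close together in the RefSeq gene order were counted, 20 in all. Of these, 17 had no other protein-coding gene between them, a share that depends on that choice of pairs. In the trypsin cluster epsilonTry lies between alphaTry and betaTry, yet it was highest in library 3 where both of its neighbours were lowest. That rank rests on a small difference, 0.12 ± 0.11 (log2, SE), and epsilonTry had 0.893 times the expected SD. In the 65A cluster yip7, Jon65Aiv and Jon65Aiii were lowest in library 3, whereas the next genes Jon65Aii and Jon65Ai were lowest in library 1. Jon65Ai hardly varied, at 0.477 times the expected SD, so its rank order carries little. CG6462, which lies between yip7 and Jon65Aiv, had 65.2, 67.3, 70.1 and 75.0, below the filter. In the 99F pair Jon99Fii varied by 1.17-fold and Jon99Fi by 1.46-fold, both with their lowest value in library 4.

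Other digestive genes and protease inhibitors were read for comparison from lists. Of 9 tested carbohydrate digestion genes, 5 had lower values in library 3, and 2 of these were called. The amylase gene Amy-d had 244 there against 446, 389 and 361 in libraries 1, 2 and 4, and the maltase gene Mal-A1 had 264 against 406, 387 and 391 (limma adjusted p 0.0332 and 0.0218). In limma 0 of 9 tested lysosomal and other gut hydrolase genes were called in any comparison. An unadjusted p under 0.05 was found for 2 of the 9 in the variance test and 2 over the labelled hour. The shares of all probe sets in these tests were 5.53% and 11.6%. LManVI had the largest SD of log2 intensity (0.22) and cathD, which encodes cathepsin D, the median one (0.09). The 3 tested lipid and sterol digestion genes gave no call and no unadjusted p under 0.05, and their SD was 0.06 in Npc2b, the median, and 0.11 in Lip4. Of 104 other serine protease genes, 6 had an unadjusted p under 0.05 in the variance test and 12 over the labelled hour.

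Regulators of the midgut were mostly dim. Of 10 measured genes of that list 6 were tested, and 0 were called in limma. An unadjusted p under 0.05 was found for 1 of the 6 in the variance test, against 5.53% of all probe sets. Over the labelled hour it was found for 2, against 11.6% of all. All 6 had lower values in library 3 than the mean of the other libraries. Of probe sets outside the 23 protease genes, 53.0% did at intensities of 92.5 to 200, and 56.7% at 200 to 500. GATAe, which encodes a GATA factor of the midgut endoderm, had 89.5, 92.0, 79.4 and 92.9 and was below the filter. Smox, the Smad gene of the activin branch, had 144, 124, 86.9 and 82.8, with the largest SD of the list (0.39, which is 4.76 times that expected). Its slope was -0.29 per hour on the log2 scale, with an unadjusted p of 3.8e-05 and a limma adjusted p of 0.298, and the variance test gave an adjusted p of 0.0784. The genes nearest the list's median SD were daw, an activin-like ligand gene (0.11), and sug (0.10).

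Serine proteases with roles in body patterning and immunity, and serpins, which inhibit such enzymes, gave no calls in limma. In the variance test 0 of 10 and 1 of 13 tested genes had an unadjusted p under 0.05, against 5.53% of all probe sets. Over the labelled hour 2 of 10 and 3 of 13 did, against 11.6% of all. For 104 other serine protease genes, a set that overlaps the 10, the counts were 6 and 12. The median SD of the 10 proteases was 1.06 times that expected. Ser7 had the largest SD of log2 intensity (0.16), and snk and Sp7, both proteases of signalling cascades, lay at the median (0.09 in each). Among the serpin genes the median was 0.976 times that expected, with the largest SD in Spn43Ad (0.19) and the median one in Spn43Aa (0.08). For the 23 gut protease genes the same figure was 1.42, and over all tested probe sets 0.927. Other lists lay above and below the gut proteases in this figure. It was 13.3 for the male gland and duct list, 4.64 for testis, 2.09 for Malpighian tubule, 2.03 for fat body, 1.31 for midgut regulators and 1.27 for carbohydrate digestion. It was 0.942 for gut hydrolases, 0.716 for egg shell, 0.655 for lipid digestion and 0.592 for salivary gland. Of 104 other genes with a serine protease or homolog synonym, 0 were called in library 3 in limma. An unadjusted p under 0.05 was found there for 8 of the 104, against 6.46% of all probe sets. CG14642 (133 in library 2 against 285, 324 and 298 in libraries 1, 3 and 4) and CG17477 (176 against 276, 286 and 270.4) were lower in library 2, with limma adjusted p of 0.00202 and 0.0278. Marker lists of salivary gland, fat body, Malpighian tubule and egg shell gave no calls in limma. In these lists 0 of 2, 2 of 5, 1 of 2 and 0 of 7 tested genes had an unadjusted p under 0.05 in the variance test. Over the labelled hour the counts were 0 of 2, 3 of 5, 1 of 2 and 0 of 7. The shares of all probe sets were 5.53% and 11.6%. By contrast, 3 of 4 tested male accessory gland or duct genes and 6 of 10 testis genes were called higher in library 3.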

How the data were processed

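Per the labels, total RNA of whole flies was hybridised to one-colour Affymetrix arrays, 1 sample per array, and the authors normalized the intensity values with dChip through invariant probes. The deposited intensities are linear; the sources used here do not give the dChip version, its background model or any detection calls. Depth has no direct measure on arrays, and the number of arrays, 4, limits the precision.

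Of 14010 probe sets, 44 controls were set aside. A probe set gave a name where its annotation held 1 gene (12443; 327 held several and 1196 none), with 12394 symbols updated through NCBI RefSeq (Release 6 plus ISO1 MT). No coordinates are given. Values under the 20th percentile (57.1) were raised to it and log2 was taken. The 8379 probe sets with a mean log2 value above the 40th percentile of means were tested.

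R 4.3.3, limma 3.58.1 and statmod 1.5.0 were used. The variance test set each probe set's variance against limma's prior (squeezeVar, robust, intensity trend; 7.26 prior degrees of freedom) in an F test's upper tail. Contrasts of 1 library with the average of the rest, and a slope over the labelled hour, were fitted with lmFit and eBayes (robust, trended, two-sided). Benjamini-Hochberg adjustment ran over all tested probe sets at 0.05. The fits were tested on simulated data. Every measured gene of the families may be named. For each library the 3 highest and 3 lowest tested genes are given, and from each other list the called genes, else those with the largest and the median SD. Any gene outside this rule was picked with its values in view. The members, lists and settings were chosen with earlier results of these data known.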

Additional observations from a re-analysis of the deposited data

Results flagged for a closer look

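Jon74E was set apart by the distance of 1 library from the others. The gap between its value in library 3 (250) and the next library (153) was 0.837 of its whole range over the 4 libraries, above Dixon's 95% critical value for 4 samples. It was the 1 of 27 measured protease genes with such a gap. Chance alone marks about 1 in 20 groups, so a count of 1 in 27 is not above chance. The gap of lambdaTry, whose value in library 4 was 121 against 92.7 to 97.8, came to 0.821 and missed the limit, and those of Jon25Bi and etaTry were 0.803 and 0.802. Library 3 also held the highest values of the male markers given above, and the part of these transcripts in the Jon74E value was not tested.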

How the results depend on the processing

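Settings were varied one at a time, 13 in all: floor, offset, filter, scaling between arrays, prior, choice of probe set, and each replicate left out. The counts of genes called in libraries 1 and 2 were 0 under all 12 settings that apply. In the variance test 1 gene was called with quantile normalization, and leaving out replicates gave 0 to 1. In library 3 the count was 0 with no filter and 1 to 6 with a replicate left out, the 6 without library 4. In library 4 it was 0 to 4 with a replicate left out, the 4 without library 3, and for the labelled hour 0 to 3, the 3 (alphaTry, betaTry and lambdaTry) also without library 3. The cause was not tested, but tests without library 3 or 4 take their spread only from the remaining libraries. The log2 change of Jon74E in library 3 ran from 0.63 to 0.89, with a limma adjusted p of 0.427 without a filter. Chosen after seeing the data, the same settings were applied to genes above an intensity of 2000: in each, 5 of 6 stayed lower in library 3, with medians from -0.31 to -0.23, against -0.02 to 0.02 for other probe sets (the 3 shared by Jon99Cii and Jon99Ciii among them). Floor, filter, prior and probe set choice cannot change these values at that intensity. Only the offset, scaling and left-out replicates could move them. The count with an SD above expected ran from 12, of 17 tested genes with a stricter filter, to 19. Choosing another probe set changed nothing, since each gene had 1. No paired analysis was possible because there is a single group. Signals near the negative controls limit what can be read from 10 of the 27 genes.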
